A study of Mus musculus with 6 samples.

Results

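The interferon-stimulated genes were examined here as a list of 34 genes in pancreatic tumours with and without Msi1. Members were chosen by name, as genes known to be induced by interferon, but with earlier results of these data known. Each was read from probe sets annotated to that gene alone. Of the 34 listed, 32 were measured, out of 18193 genes with such a probe set. Isg15 was left out because its probe set is also annotated to another gene, and Ifi44 was not analysed here. Where a gene had several probe sets, the one with the highest mean over all arrays was used.

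Gene expression had been measured in pancreatic tumour cells of C57BL/6 mice at 11 weeks of age, on 1 Affymetrix array per sample. All 6 samples shared the same tumour alleles, among them p53f/f and ptf1a-Cre as the labels spell them. In 3 of them the genotype at Msi1 was wt, called wild-type here, and in the other 3 it was Msi1 -/-, called Msi1-null. The Msi1 product, Musashi 1, binds messenger RNAs and is found in stem and progenitor cells. Cre under the control of Ptf1a recombines floxed alleles such as p53f/f in the lineage of the pancreatic epithelium. The labels give each sample a mouse number of its own, and they do not say in which cells Msi1 is absent. The 10 markers of ductal epithelium were above array background in all 6 arrays, as were all 10 fibroblast markers and 12 of 13 macrophage markers, so the preparations held RNA of cells other than tumour epithelium. In such bulk samples, fewer cells of a type and less RNA per cell cannot be told apart.

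Interferons are cytokines secreted on infection or tissue damage. Type I interferons (alpha and beta) signal through the receptor chains Ifnar1 and Ifnar2 to a protein complex, which includes Stat2 and Irf9, that binds a DNA element called ISRE (interferon-stimulated response element) and switches on antiviral genes. Interferon gamma, a product of T and NK cells, signals through Ifngr1 and Ifngr2 and acts on another element, GAS (gamma-activated site). It induces GTPases, some of which attack vacuoles holding microbes. Both responses share many genes, and a low tonic expression of them is seen in tissues without infection.

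The promoter stretches that follow show elements found in some of the members described later. Only genes with a match are printed. Oasl1, Oasl2, Irf7, Irf9, Dtx3l and Xaf1 were among those without a match to either element. ISRE was searched as GAAA, then NN, then GAAA, and GAS as TTCNNNGAA, with N for any base, on both strands of RefSeq windows from 250 bases before to 50 bases after each gene's start (GRCm38.p6). Windows were held for 26 of the 34 listed genes. ISRE matches lay in the windows of 16 of these genes (61.5%), against 3.99% of all 27025 genes with a window, and GAS matches in 8 (30.8%), against 9.55%. All 4 GTPase genes with a window had an ISRE match and 1 had a GAS match. Among the measured members, ISRE matches were found in 4 of 7 whose Msi1-null arrays all lay above the wild-type arrays and in 11 of 17 whose groups overlapped. Of the 26 ISRE matches, 11 overlapped another ISRE match and 2 overlapped a GAS match. A match describes letters in a window and is not evidence of binding. Each line reads 5′ to 3′ on the gene's strand, ends before the start site, and has the matches in capitals (ISRE for all genes but Irf1, where GAS is marked).
Ifit1, chr19:34640765-34640833 (+ strand): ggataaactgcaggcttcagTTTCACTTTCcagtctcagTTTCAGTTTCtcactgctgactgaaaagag
Ifit3, chr19:34583353-34583436 (+ strand): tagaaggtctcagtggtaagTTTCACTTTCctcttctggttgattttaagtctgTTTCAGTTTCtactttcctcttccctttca
Bst2, chr8:71537567-71537622 (- strand): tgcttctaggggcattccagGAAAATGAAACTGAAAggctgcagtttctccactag
Oas1a, chr5:120907526-120907565 (- strand): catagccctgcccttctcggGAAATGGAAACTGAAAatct
Rsad2, chr12:26456543-26456592 (- strand): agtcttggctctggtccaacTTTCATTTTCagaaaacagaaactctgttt
Stat2, chr10:128270256-128270305 (+ strand): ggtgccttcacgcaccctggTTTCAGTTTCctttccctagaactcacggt
Irf1, chr11:53769904-53769952 (+ strand): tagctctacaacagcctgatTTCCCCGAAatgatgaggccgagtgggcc
Gbp2, chr3:142620584-142620633 (+ strand): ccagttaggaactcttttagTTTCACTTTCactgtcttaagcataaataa
Gbp3, chr3:142559979-142560034 (+ strand): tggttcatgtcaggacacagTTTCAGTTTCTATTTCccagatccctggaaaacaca
Igtp, chr11:58199502-58199551 (+ strand): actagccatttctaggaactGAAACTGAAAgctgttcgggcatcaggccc
Irgm1, chr11:48871421-48871470 (- strand): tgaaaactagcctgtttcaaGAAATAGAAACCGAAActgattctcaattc
Ifit1 and Ifit3 each held a pair of separate ISRE matches, while those of Bst2, Oas1a, Gbp3 and Irgm1 ran into each other. In Oas1a the nearest match ended 4 bases before the start site and in Irgm1 14 bases, against 212 bases in Stat2.

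Values are deposited intensities on a linear scale, and differences are Msi1-null minus wild-type on the scale of log2(intensity + 1), with limma's standard error (SE). Msi1 itself did not separate the genotypes: its probe set of highest mean read 144, 150.4 and 257 in wild-type replicates 1 to 3 and 141, 168 and 127 in Msi1-null replicates 1 to 3, and its 3 probe sets differed by 0.09 ± 0.07, -0.07 ± 0.08 and -0.29 ± 0.22 on the log2 scale (SE). Where they lie relative to the deletion is unknown here, and the genotype labels could not be checked with them. Median intensity per array lay between 159.2 and 164.3. Array background was taken from 83 probe sets of vomeronasal, taste and olfactory receptors, whose 95th percentile lay between 162 and 189. The Msi1 probe sets with differences of 0.09 and -0.07 exceeded this background in 0 arrays. The Msi1 probe set of highest mean exceeded it in 2 arrays, wild-type replicate 3 and Msi1-null replicate 2. In wild-type replicates 1 and 2 Msi1 was thus not detected, and a loss of its RNA could not be read against them. Wild-type replicate 3 had a female pattern, with Xist, the RNA of the inactive X chromosome, at 6226 against 131 to 387 in the other arrays, and the Y-linked Eif2s3y at 88.2 against 716 to 944. Msi1-null replicate 1 had the lowest weight (0.34) when limma estimated the reliability of each array. Of all 45037 probe sets, 0 had an adjusted p below 0.05 in limma (0.00%), while 1.46% were higher and 1.55% lower at an unadjusted p below 0.05. No gene described here therefore passed the threshold after Benjamini-Hochberg adjustment.

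The interferon-stimulated genes nearly all had higher means in the Msi1-null arrays, by small amounts. Means were higher for 31 of the 32 measured members (96.9%), where 50.2% of all genes had a difference above 0. Their median log2 difference was 0.26, against 0.001 over all genes, whose differences lay between -0.06 and 0.06 from the 25th to the 75th percentile. At an unadjusted p below 0.05 (limma), 11 members were higher (34.4%, against 1.60% of all genes) and 0 were lower (against 1.85%). Every Msi1-null array lay above every wild-type array for 9 members (28.1%, against 4.00% of all genes), and the opposite order was seen for 0 (against 4.28%). The adjusted p was 0.9997 for every member in limma, and with 3 arrays against 3 an exact two-sided permutation test cannot give a p below 0.1. The members are known to be induced together and were measured in the same 6 samples, so they are not independent observations. They were also chosen with earlier results of these data known, so the shares describe the list and test nothing. In 27 of the 32 genes all 6 values lay above array background, and in Mx1 and Stat2 none did.

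**Figure D1:**
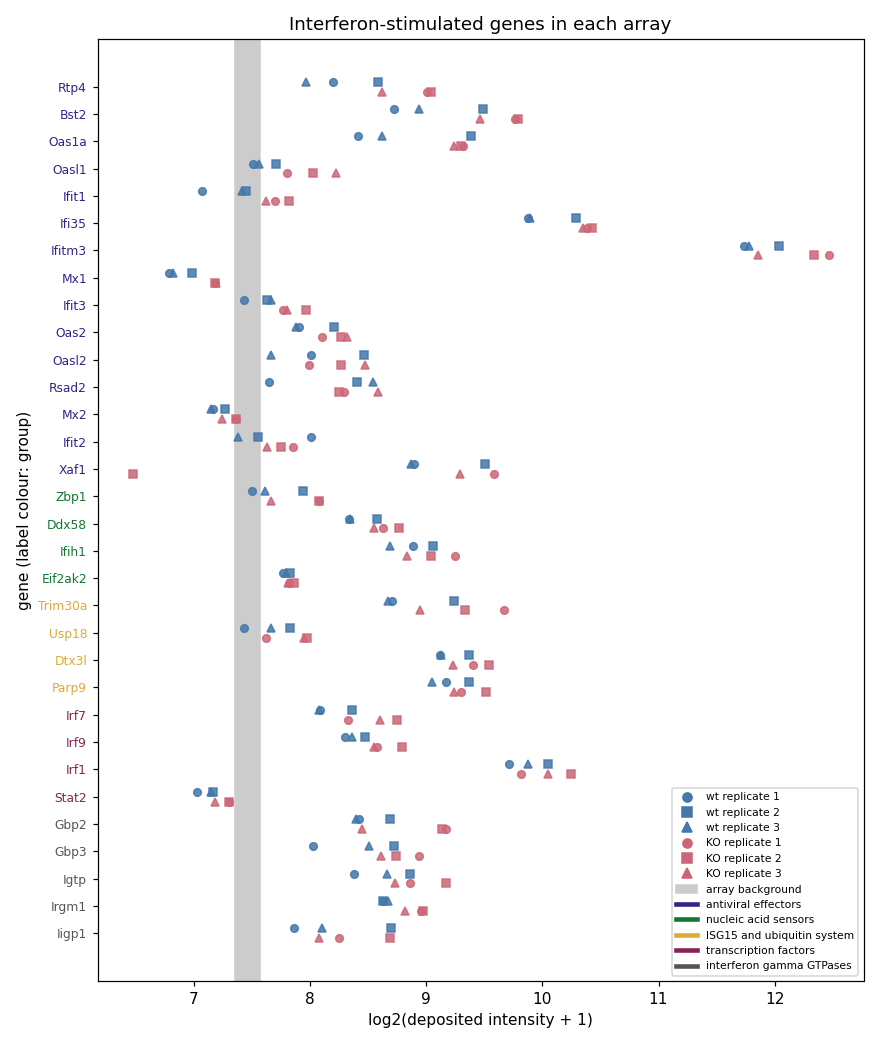
Deposited intensity of each of the 32 measured genes on a log2(intensity + 1) axis, 1 point per array, with wild-type arrays in blue above and Msi1-null arrays in red below each row, and the range of array background in grey. Wild-type replicate 2 (blue square) is the highest wild-type array in 28 of the 32 genes, and Xaf1 has a single low value, 87.7, in Msi1-null replicate 2.

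The wild-type arrays did not behave alike. Wild-type replicates 1 and 3 lay below all 3 Msi1-null arrays for 28 and 27 of the 32 members, and wild-type replicate 2 for 10. Wild-type replicate 2 was the highest of its group in 28 members, replicate 3 in 3 and replicate 1 in 1. Among Msi1-null arrays, replicate 3 was the lowest in 22 members, replicate 1 in 8 and replicate 2 in 2. Without wild-type replicate 2, the Msi1-null arrays lay above the wild-type arrays for 24 members, and without Msi1-null replicate 3 for 19. With fewer arrays this order is also more common, at 8.67% and 9.23% of all probe sets, against 4.08% with all 6.

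Antiviral effectors are the products that block viral entry, translation or replication, and 15 of 16 listed were measured. Of these, 14 had higher means in Msi1-null arrays (93.3%, against 50.2% of all genes). At an unadjusted p below 0.05, 7 were higher (46.7%, against 1.60%). In 6, every Msi1-null array lay above every wild-type array (40.0%, against 4.00%). The median log2 difference was 0.33.

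The Ifit genes encode proteins that bind foreign RNA ends and stop their translation. Ifit1, with 2 ISRE matches in the stretch shown above, read 133, 173 and 169.7 in wild-type replicates 1 to 3 and 206, 225 and 196 in Msi1-null replicates 1 to 3. The groups did not overlap, and the log2 difference was 0.40 ± 0.11 (SE; limma unadjusted p = 0.00833), and between 0.28 and 0.47 with each array left out. Ifit3, with 3 protein-coding genes between it and Ifit1 on chromosome 19, read 172, 197 and 202 in wild-type replicates 1 to 3 and 217, 248 and 221 in Msi1-null replicates 1 to 3, again without overlap, and differed by 0.27 ± 0.09 (SE). Ifit2, which lies next to Ifit3, read 257, 187 and 165 in wild-type replicates 1 to 3 and 229.6, 214 and 197 in Msi1-null replicates 1 to 3. Here wild-type replicate 1 was the highest of all 6 arrays, and the difference of 0.10 ± 0.16 (SE) became -0.04 when wild-type replicate 3 was left out and 0.28 when replicate 1 was. Cross-hybridisation between such close paralogs cannot be told apart from the gene's own signal.

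Mx1 and Mx2 encode dynamin-like GTPases that trap viral nucleocapsids. Mx1 read 109, 125 and 112 in wild-type replicates 1 to 3 and 144, 144 and 145 in Msi1-null replicates 1 to 3. The 3 Msi1-null values were nearly equal and lay above all wild-type values, with a log2 difference of 0.33 ± 0.06 (SE; limma unadjusted p = 0.000987), but all 6 values were below array background. Mx2 read 142, 153 and 141 in wild-type replicates 1 to 3 and 164, 164 and 149.8 in Msi1-null replicates 1 to 3, with 1 value above background and overlap between Msi1-null replicate 3 and wild-type replicate 2. It differed by 0.13 ± 0.06 (SE).

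The Oas genes encode enzymes that sense double-stranded RNA and make 2-5A, the activator of RNase L, and Oasl1 and Oasl2 encode related proteins. Oas1a read 339, 667 and 391 in wild-type replicates 1 to 3 and 638, 627 and 603 in Msi1-null replicates 1 to 3. Wild-type replicate 2 was the highest of all 6 arrays, while the 3 Msi1-null arrays lay close together. The groups averaged 466 ± 176 with Msi1 present and 623 ± 18.1 without it (SD, n = 3 each). The log2 difference of 0.48 ± 0.23 (SE) ranged between 0.28 and 0.77 with 1 wild-type array left out (replicates 1 and 2). Oas2 read 238, 294 and 234 against 274, 306 and 317 in the same order of arrays and differed by 0.23 ± 0.11 (SE).

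Oasl1 and Oasl2 are direct neighbours on chromosome 5 and differed in how their arrays were ordered. Oasl1 read 181, 207 and 188 in wild-type replicates 1 to 3 and 222, 260.1 and 297 in Msi1-null replicates 1 to 3, with no overlap and a log2 difference of 0.43 ± 0.12 (SE; limma unadjusted p = 0.00743). Oasl2 read 256, 352 and 202 in wild-type replicates 1 to 3 and 253, 306 and 354 in Msi1-null replicates 1 to 3. Its groups overlapped almost fully, and the difference of 0.20 ± 0.21 (SE) was 0.01 without wild-type replicate 3.

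Among effectors at membranes, Bst2, or tetherin, which holds budding virus particles at the cell surface, read 422, 717 and 488 in wild-type replicates 1 to 3 and 866, 885 and 703 in Msi1-null replicates 1 to 3. Msi1-null replicates 1 and 2 lay above all wild-type arrays, and replicate 3 lay just below wild-type replicate 2. The groups averaged 542 ± 155 with Msi1 present and 818 ± 100.2 without it (SD, n = 3 each), a log2 difference of 0.62 ± 0.21 (SE; limma unadjusted p = 0.0179), and between 0.46 and 0.84 with each array left out. Ifitm3, which blocks the fusion of viruses with endosomes, read 3418, 4211 and 3509 in wild-type replicates 1 to 3 and 5655, 5192 and 3707 in Msi1-null replicates 1 to 3. Msi1-null replicate 3 lay within the wild-type range, and the difference was 0.37 ± 0.17 (SE). Rsad2, or viperin, an enzyme that makes a chain-terminating nucleotide, read 199, 337 and 372 in wild-type replicates 1 to 3 and 312, 303 and 383 in Msi1-null replicates 1 to 3. Only wild-type replicate 1 was low, and the difference of 0.18 ± 0.23 (SE) was -0.10 without that array.

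Further effectors included the member with the largest positive difference. Rtp4, an interferon-induced chaperone of receptors with antiviral activity, read 292, 382 and 249 in wild-type replicates 1 to 3 and 514, 527 and 392 in Msi1-null replicates 1 to 3. The groups did not overlap and averaged 308 ± 68.0 with Msi1 present and 478 ± 74.2 without it (SD, n = 3 each), for a log2 difference of 0.64 ± 0.18 (SE; limma unadjusted p = 0.00911). Its second probe set, at 97.9 to 109.3 in all 6 arrays and so below array background, differed by 0.02 ± 0.06 (SE). Ifi35, an interferon-induced leucine zipper protein, read 938, 1251 and 952 in wild-type replicates 1 to 3 and 1333, 1379.8 and 1305 in Msi1-null replicates 1 to 3 and differed by 0.37 ± 0.14 (SE), without overlap. This probe set shares probes with other transcripts by its name, and the other 2 Ifi35 probe sets differed by 0.26 ± 0.12 and 0.23 ± 0.11 (SE).

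Xaf1, a protein linked to cell death, was the only measured member with a lower mean in Msi1-null arrays. It read 476, 727 and 466 in wild-type replicates 1 to 3 and 767, 87.7 and 624 in Msi1-null replicates 1 to 3. The mean rested on Msi1-null replicate 2, at 87.7, and the difference of -0.64 ± 0.75 (SE) was 0.35 without it and -1.21 without Msi1-null replicate 1. In the same array the second Xaf1 probe set had its highest value, 228, and that probe set differed by 0.21 ± 0.14 (SE). Of the 16 further probe sets of the 12 members that had several, all 16 had a higher mean in Msi1-null arrays, where 51.4% of all probe sets had a difference above 0. They read the same genes in the same samples again and are not added evidence. Among them, a probe set each of Rtp4, Ddx58, Stat2 and Rsad2 exceeded array background in 0 arrays. Every Msi1-null array lay above every wild-type array in 3 of the 16 (4.08% of all probe sets), and the opposite order was seen in 0 (3.71%).

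**Figure D2:**
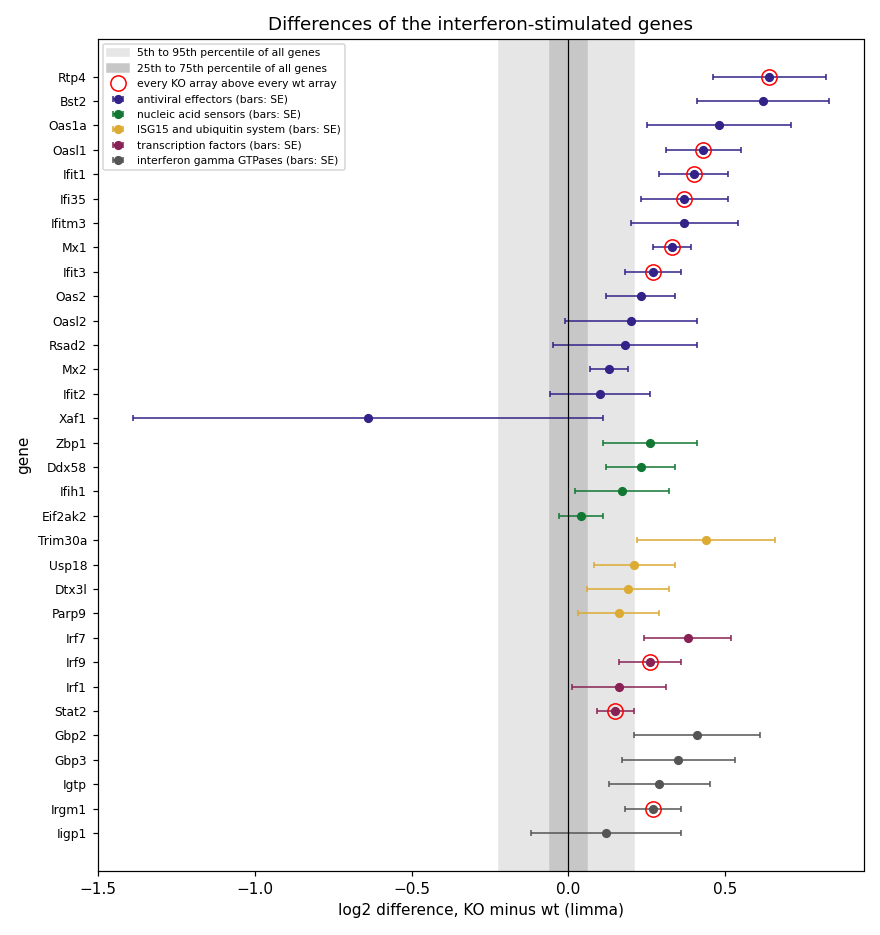
Log2 difference of each measured gene, Msi1-null minus wild-type, with limma's SE as bars and colours for the 5 groups of members, over grey bands for the 25th to 75th and the 5th to 95th percentile of all genes. Of the 32 genes, 31 lie above 0, and the 9 genes circled in red are those in which every Msi1-null array lay above every wild-type array.

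Nucleic acid sensors detect viral RNA or DNA in the cell. Means were higher for 4 of 4 measured members (against 50.2% of all genes), with a median log2 difference of 0.20. At the probe sets used, none of the 4 had an unadjusted p below 0.05 (1.60% of all genes were higher at that p). In none of those probe sets were the groups separate (every Msi1-null array lay above every wild-type array in 4.00% of all genes). Ddx58, or RIG-I, a helicase that binds RNA with triphosphate ends, read 322, 381 and 324 in wild-type replicates 1 to 3 and 394, 435 and 373 in Msi1-null replicates 1 to 3 and differed by 0.23 ± 0.11 (SE). Msi1-null replicate 3 lay just below wild-type replicate 2, and Msi1-null replicates 1 and 2 exceeded every wild-type value. Ifih1, or MDA5, the sensor of long double-stranded RNA, read 471, 532 and 411 against 606, 525 and 456 in the same order of arrays, with broad overlap and a difference of 0.17 ± 0.15 (SE). Zbp1, which senses Z-form nucleic acids, read 179.6, 245 and 195 against 269, 269 and 202 and differed by 0.26 ± 0.15 (SE). Eif2ak2, or PKR, the kinase that halts translation on double-stranded RNA, was nearly level at 217, 225 and 221 against 224, 232 and 223, with a difference of 0.04 ± 0.07 (SE). The other 2 probe sets of Ddx58, above background in 1 and 0 of 6 arrays, differed by 0.22 ± 0.09 and 0.06 ± 0.05 (SE), with unadjusted p of 0.0357 and 0.263 in limma. The second Zbp1 probe set, above background in 2 arrays, differed by 0.26 ± 0.11 (SE; limma unadjusted p = 0.0394). The other 2 Eif2ak2 probe sets, above background in 6 and 5 arrays, differed by 0.11 ± 0.07 and 0.02 ± 0.09 (SE). In the former, and in the Ddx58 probe set that differed by 0.22, every Msi1-null array lay above every wild-type array (4.08% of all probe sets).

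Members of the ISG15 and ubiquitin system attach or remove ubiquitin-like tags. Higher means were seen for 4 of 4 measured (against 50.2% of all genes), again with a median of 0.20 and with overlap in each. Usp18, which removes ISG15 and dampens the type I receptor, read 172, 226 and 202 in wild-type replicates 1 to 3 and 196, 249.6 and 246 in Msi1-null replicates 1 to 3 and differed by 0.21 ± 0.13 (SE). Dtx3l, an E3 ligase, and Parp9, its partner, are direct neighbours on chromosome 16. Dtx3l read 554, 661 and 558 against 677, 744 and 599.8 in the same order of arrays and differed by 0.19 ± 0.13, and Parp9 read 574, 658 and 529 against 628, 732 and 605 and differed by 0.16 ± 0.13 (SE). The 6 arrays ranked the pair almost alike, with Msi1-null replicate 2 the highest for both. Trim30a, a ligase that restrains inflammatory signalling, read 417, 604 and 405 in wild-type replicates 1 to 3 and 813, 643 and 492 in Msi1-null replicates 1 to 3. Its difference of 0.44 ± 0.22 (SE) was 0.27 without Msi1-null replicate 1, and its second probe set differed by 0.40 ± 0.19 (SE).

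Transcription factors of the response had higher means for 4 of 4 (against 50.2% of all genes), with a median log2 difference of 0.21. At an unadjusted p below 0.05, 3 were higher (against 1.60%). Irf7, which amplifies the production of type I interferon, read 270, 329 and 269 in wild-type replicates 1 to 3 and 320.4, 428 and 388 in Msi1-null replicates 1 to 3. Msi1-null replicate 1 lay within the wild-type range and the other Msi1-null arrays above it, and the difference was 0.38 ± 0.14 (SE; limma unadjusted p = 0.0244). Irf9, the DNA-binding part of the type I complex, read 314, 354 and 328 in wild-type replicates 1 to 3 and 380.3, 443 and 375 in Msi1-null replicates 1 to 3, without overlap, and differed by 0.26 ± 0.10 (SE; limma unadjusted p = 0.037). Stat2, its partner, read 129, 142 and 140.5 in wild-type replicates 1 to 3 and 157, 157 and 144 in Msi1-null replicates 1 to 3. It differed by 0.15 ± 0.06 (SE; limma unadjusted p = 0.0485) without overlap, although all values were below array background. Irf1, the factor most directly driven by interferon gamma and the bearer of the GAS match shown above, read 838, 1059 and 941 against 899, 1214 and 1058 in the same order of arrays. Its groups overlapped, and the difference of 0.16 ± 0.15 (SE) was 0.05 without Msi1-null replicate 2.

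The GTPases induced by interferon gamma comprise guanylate-binding proteins (Gbp2, Gbp3) and immunity-related GTPases (Iigp1, Igtp, Irgm1). Effectors among them act on the membranes of pathogen vacuoles. Means were higher in Msi1-null arrays for 5 of 5 (against 50.2% of all genes), and the median log2 difference was 0.29. At an unadjusted p below 0.05, 1 was higher (against 1.60%). Irgm1, a regulator of the other immunity-related GTPases, read 395, 395 and 406 in wild-type replicates 1 to 3 and 495, 502 and 449 in Msi1-null replicates 1 to 3. The wild-type arrays lay within a narrow range and below all Msi1-null arrays, with a difference of 0.27 ± 0.09 (SE; limma unadjusted p = 0.0198), and between 0.24 and 0.32 with each array left out. Gbp2 read 342, 412 and 335 in wild-type replicates 1 to 3 and 574, 560.2 and 347 in Msi1-null replicates 1 to 3. Msi1-null replicates 1 and 2 were high while replicate 3 lay among the wild-type arrays, and the difference of 0.41 ± 0.20 (SE) was 0.65 without replicate 3. Gbp3 read 259, 422 and 362 against 489.5, 427 and 391 in the same order of arrays and differed by 0.35 ± 0.18 (SE), and Igtp read 331, 464 and 404 against 464, 576 and 425 and differed by 0.29 ± 0.16 (SE). Iigp1, the effector that disrupts the vacuole, read 232, 415 and 273 in wild-type replicates 1 to 3 and 304, 412 and 269 in Msi1-null replicates 1 to 3. Its groups overlapped fully, and the difference of 0.12 ± 0.24 (SE) turned to -0.06 when wild-type replicate 1 or Msi1-null replicate 2 was left out.

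Set against each other, the type I antiviral genes (effectors, sensors and the ISG15 system, 23 measured) and the 5 GTPases did not separate. Median log2 differences were 0.23 and 0.29. The order of the medians turned in some fits. They were 0.19 and 0.16 when wild-type replicate 1 was dropped, 0.27 and 0.26 when Msi1-null replicate 1 was dropped, and 0.23 and 0.22 with array weights. A score per array was formed as the mean log2 value of the genes minus their mean over the 6 arrays. For the type I genes it was -0.25, 0.09 and -0.22 in wild-type replicates 1 to 3 and 0.19, 0.10 and 0.09 in Msi1-null replicates 1 to 3. For the GTPases it was -0.36, 0.09 and -0.16 in wild-type and 0.21, 0.32 and -0.09 in Msi1-null arrays. The type I score of wild-type replicate 2 equalled that of Msi1-null replicate 3 at 2 decimals, and the GTPase score of wild-type replicate 2 was the higher of that pair. The type I score minus the GTPase score ran from -0.06 to 0.11 in wild-type and from -0.22 to 0.18 in Msi1-null arrays, so the spread within a genotype was wider than any shift between them. Xaf1 lowered the type I score of Msi1-null replicate 2. Without that gene, left out after its values were seen, the score there was 0.21 and that of replicates 1 and 3 was 0.16 and 0.07, while wild-type replicate 2 stood at 0.06.

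**Figure D3:**
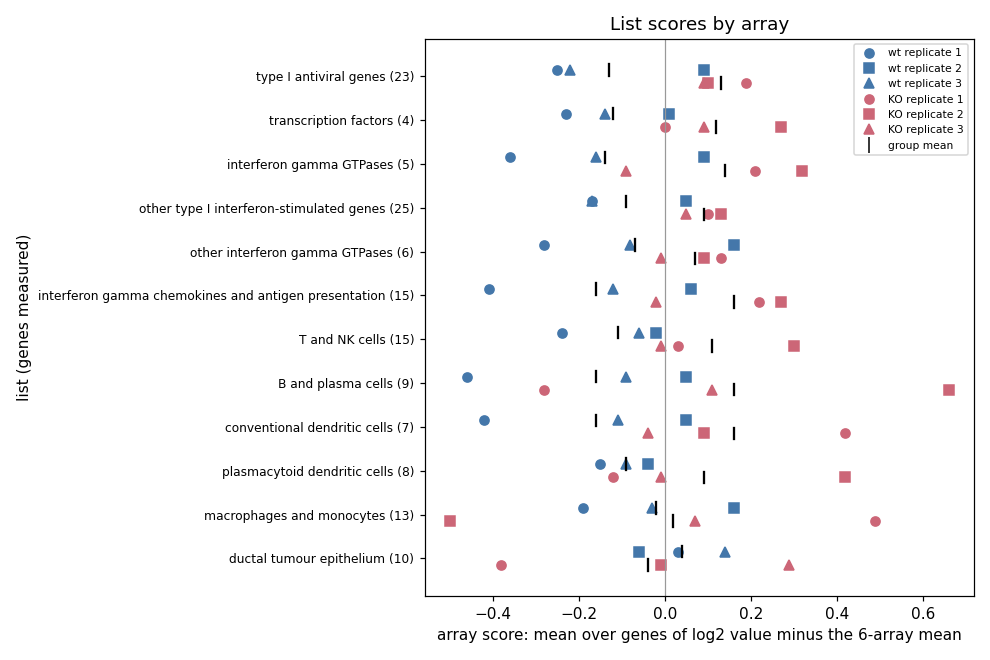
Score of each list in each array, the mean over its genes of the log2 value minus the mean over 6 arrays, with wild-type arrays in blue, Msi1-null arrays in red, black bars for group means and the number of measured genes in brackets. For type I genes and GTPases wild-type replicate 1 is lowest, at -0.25 and -0.36, and wild-type replicate 2 lies at 0.09 in both, among the Msi1-null arrays.

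Upstream genes of the pathway came from further lists. Beside their counts, 50.2% of all genes had a difference above 0, and 1.60% were higher at an unadjusted p below 0.05. Of the interferons themselves 7 of 13 listed genes were measured, and all 7 lay below array background in all 6 arrays. Their median log2 difference was 0.02, with higher means for 4 and 1 higher at an unadjusted p below 0.05. Ifnb1 read 99.6, 95.7 and 96.0 against 101, 91.5 and 93.2 (wild-type against Msi1-null replicates 1 to 3), and Ifng, the gene of interferon gamma, read 86.7, 83.6 and 85.2 against 84.6, 89.3 and 80.4. Ifna4, an alpha interferon, differed by 0.11 ± 0.04 and Ifna2 by 0.06 ± 0.06 (SE). All 9 measured receptor and kinase genes lay above background in every array, with higher means for 7, 1 of them at an unadjusted p below 0.05, and a median log2 difference of 0.10. Ifnar2, a chain of the type I receptor, read 880, 883 and 714 in wild-type replicates 1 to 3 and 1299.6, 997 and 957 in Msi1-null replicates 1 to 3, without overlap. Its difference of 0.39 ± 0.16 (SE; limma unadjusted p = 0.0408) was 0.12 when its probe sets were averaged. Ifngr2, a chain of the interferon gamma receptor, differed by 0.30 ± 0.14 (SE), and by 0.18 with its probe sets averaged. The kinase Jak2 differed by 0.17 ± 0.13 (SE), and by 0.06 when wild-type replicate 1 was left out.

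Genes that lead to interferon production, 13 of 13 measured, had a median log2 difference of 0.06 and 0 with an unadjusted p below 0.05 in limma. The myeloid factor Irf8 differed by 0.26 ± 0.16, the DNA-sensing adaptor Sting1 by 0.20 ± 0.14 and the kinase Tbk1 by -0.09 ± 0.10 (SE). With wild-type replicate 1 left out, Irf8 differed by 0.11, Sting1 by 0.09 and Tbk1 by -0.05. Negative regulators had higher means for 6 of 8, 1 of them at an unadjusted p below 0.05, with a median of 0.10. Socs1, the feedback inhibitor of Jak kinases, read 122, 129.8 and 126 against 143, 136 and 134, below background in all arrays, and differed by 0.13 ± 0.05 (SE), without overlap. The phosphatase Ptpn6 differed by 0.22 ± 0.12 and Socs3 by 0.11 ± 0.11 (SE), the latter by -0.05 at its probe set of highest mean that shares no probes with other transcripts.

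Type I genes and GTPases outside the 34 gave smaller medians with the same sign. Of 25 other type I genes 23 had higher means, with a median log2 difference of 0.12 and 3 at an unadjusted p below 0.05. Every Msi1-null array lay above every wild-type array in 5 (4.00% of all genes), and the opposite order was seen in 0 (4.28%). The median of the 25 was 0.07 when wild-type replicate 3 was left out and 0.19 when replicate 2 was. Lgals3bp, a secreted glycoprotein, read 2438, 2463 and 2275 in wild-type replicates 1 to 3 and 2875, 3442 and 2774 in Msi1-null replicates 1 to 3 and differed by 0.34 ± 0.11 (SE). Ifit1bl1, a relative of Ifit1 that lies close to background, differed by 0.36 ± 0.13 and Phf11d, a zinc finger protein, by 0.35 ± 0.13 (SE). Other GTPases induced by interferon gamma had higher means for 5 of 6, a median of 0.15 and 0 with an unadjusted p below 0.05, with Ifi47 at 0.23 ± 0.17, Gbp8 at 0.21 ± 0.15 and Gbp6 at 0.19 ± 0.14 (SE). These 3 differed by 0.09, 0.05 and 0.08 in the fit that lacked wild-type replicate 1. The median of the 6 was 0.06 when wild-type replicate 1 was left out and 0.28 when replicate 2 was.

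Chemokine and antigen presentation genes driven by interferon gamma had higher means for 14 of 15, 3 of them at an unadjusted p below 0.05, with a median log2 difference of 0.30. In none of these pathway lists was a gene lower at that p. Cxcl9, the T cell attractant, read 105, 125 and 128 in wild-type replicates 1 to 3 and 154, 265 and 164 in Msi1-null replicates 1 to 3. The groups did not overlap, Msi1-null replicate 2 was highest and 1 of the 6 values lay above background, with a difference of 0.66 ± 0.20 (SE) that was 0.41 without Msi1-null replicate 2 and 0.39 when its probe sets were averaged. Tapbp and Tap1, of peptide loading, differed by 0.29 ± 0.09 and 0.48 ± 0.17 (SE), and Tap1 by 0.11 when its probe sets were averaged. Cxcl9, Tapbp and Tap1 were named for the smallest unadjusted p of the list. At its low end, Cd274 differed by -0.10 ± 0.14, Cxcl11 by 0.03 ± 0.06 and Ido1, below background in all arrays, by 0.03 ± 0.05 (SE).

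Markers of several blood cell types also had higher means in Msi1-null arrays, where 50.2% of all genes had a difference above 0. For T and NK cells, the source of interferon gamma, 15 of 15 markers had higher means, with a median log2 difference of 0.15. Of these, 5 (33.3%) were higher at an unadjusted p below 0.05 and 4 (26.7%) had every Msi1-null array above every wild-type array. These shares were 1.60% and 4.00% over all genes, and 34.4% and 28.1% for the interferon-stimulated genes. The summed intensity of the 15 was 4264 to 4984 in wild-type and 4273 to 5498 in Msi1-null arrays. Thy1 alone read 2040 to 3091 and 1970 to 2934, so these sums say little about the other markers. Of the 15, 5 lay below background in all 6 arrays. The score was lowest in wild-type replicate 1 (-0.24) and highest in Msi1-null replicate 2 (0.30). Cd3g, a T cell receptor component, read 131, 167 and 161 against 197, 300.1 and 167 in wild-type against Msi1-null arrays. Its log2 difference of 0.50 was among the larger ones of the list, while Cd4, Thy1, Prf1 and Ncr1 were level at 0.04, 0.01, 0.01 and 0.0. Conventional dendritic cell markers had higher means for 6 of 7, 3 of them (42.9%) at an unadjusted p below 0.05 and without overlap, with a median of 0.36 that was 0.16 when Msi1-null replicate 1 was dropped. They had scores of -0.42, 0.05 and -0.11 in wild-type and 0.42, 0.09 and -0.04 in Msi1-null arrays and summed intensities of 1274 to 2402 and 1876 to 3268. In these sums Itgax alone gave 396 to 1342 in wild-type and 779 to 1882 in Msi1-null arrays. Of 8 markers for plasmacytoid dendritic cells, known as producers of type I interferon, 8 had higher means and summed to 2637 to 2875 and 2794 to 3788. Their scores were -0.15, -0.04 and -0.09 in wild-type and -0.12, 0.42 and -0.01 in Msi1-null arrays, so only Msi1-null replicate 2 stood out. Their median log2 difference of 0.13 was 0.05 without that array. Siglech, the defining one, lay above background in 1 of 6 arrays, and Tcf4, Ly6d, Spib and Ccr9 of that list are expressed in other cells too. Tcf4 alone read 1386 to 1625 in wild-type and 1453 to 1662 in Msi1-null arrays, a large part of the summed intensity of the list.

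Macrophage markers had higher means for 8 of 13, with a median log2 difference of 0.04 and summed intensities of 28916 to 37131 in wild-type and 23359 to 45621 in Msi1-null arrays. Their scores were -0.19, 0.16 and -0.03 in wild-type and 0.49, -0.50 and 0.07 in Msi1-null arrays, against -0.27, 0.08 and -0.20 and 0.17, 0.15 and 0.06 for all 32 interferon-stimulated genes. Both scores ranked 5 of the arrays alike, from wild-type replicate 1 as the lowest to Msi1-null replicate 1 as the highest, and parted in Msi1-null replicate 2, where the macrophage score was the lowest of all. The macrophage result depended on which array was left out. Without Msi1-null replicate 2, 13 of 13 macrophage markers had higher means, with a median of 0.27. Without Msi1-null replicate 1 it was 3 of 13, with a median of -0.17, and without wild-type replicate 1 it was 5 of 13, with a median of -0.02. B and plasma cell markers had higher means for 8 of 9, with a median of 0.34 that was 0.11 when Msi1-null replicate 2 was left out. They summed to 7186 to 9070 in wild-type and 5807 to 12472 in Msi1-null arrays, with scores of -0.46, 0.05 and -0.09 and of -0.28, 0.66 and 0.11. In these sums Jchain, with a difference of -0.02, alone gave 5510 to 7118 in wild-type and 3604 to 9205 in Msi1-null arrays. Endothelial markers had higher means for 6 of 8 (median 0.28, and 0.14 when Msi1-null replicate 1 was dropped), neutrophil markers for 7 of 10 (median 0.08) and fibroblast markers for 5 of 10. Ductal epithelium markers summed to 59807 to 70446 and 52311 to 79526 and had a median difference of -0.01. Acinar markers had lower means for 10 of 10, 9 of them at an unadjusted p below 0.05, where 1.85% of all genes were lower. Their summed intensities were 38634 to 60370 in wild-type and 12939 to 36788 in Msi1-null arrays. Acinar scores were 0.51, 1.20 and 0.52 in wild-type and -1.62, -0.89 and 0.28 in Msi1-null arrays. As a measure of RNA degradation, the 3′ to 5′ ratio of Gapdh was 1.55, 1.86 and 1.67 in wild-type and 1.38, 1.60 and 1.61 in Msi1-null arrays. The part of cell makeup and RNA quality in the values of the interferon-stimulated genes was not tested.

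Each of the 6 fits that left out 1 array kept a positive median for the 32 members. It was lowest, 0.19, when wild-type replicate 1 was dropped and highest, 0.35, when replicate 2 was, and it was 0.27 when the array with the female pattern, replicate 3, was dropped. Of the 32 genes, 28 had a difference above 0 in all 6 fits, the exceptions being Ifit2, Rsad2, Xaf1 and Iigp1, and 17 moved by over 1.5 times in at least 1 of them. The count of members higher at an unadjusted p below 0.05 was 11 with all arrays, where 1.46% of all probe sets were. It was 6 when wild-type replicate 1 or 3 was dropped (0.824% and 1.08% of all probe sets) and 4 when Msi1-null replicate 2 was (1.07%). It was 16 when wild-type replicate 2 was dropped (1.56%), 14 when Msi1-null replicate 3 was (1.52%) and 12 when Msi1-null replicate 1 was (3.83%). The GTPase median of 0.29 was 0.16 without wild-type replicate 1.

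**Figure D4:**
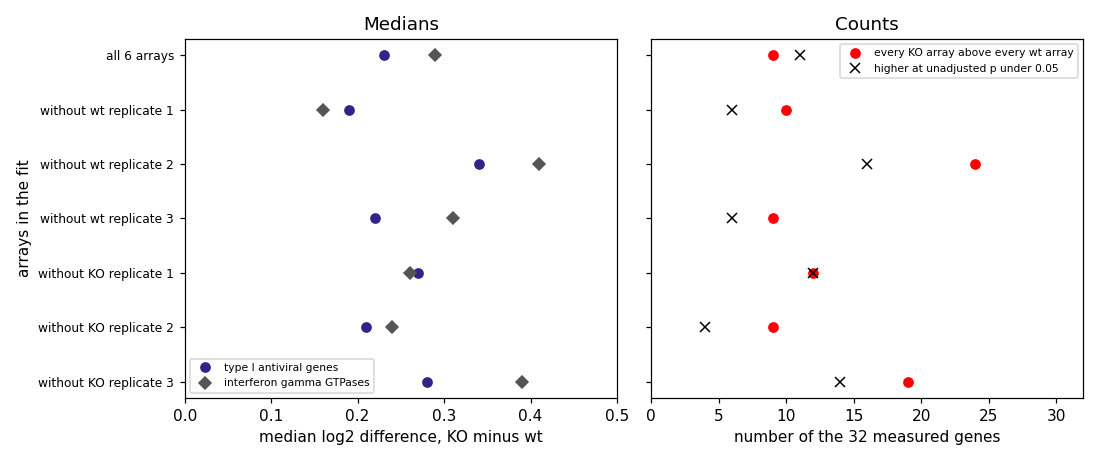
Median log2 difference of type I antiviral genes and of GTPases induced by interferon gamma (left), and number of the 32 measured genes with every Msi1-null array above every wild-type array or with an unadjusted p below 0.05 (right), with all 6 arrays and with each array left out. Both medians stay above 0 in every fit, between 0.16 and 0.41, and the count of genes without overlap is highest, at 24, without wild-type replicate 2.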

How the data were processed

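RNA of 6 samples was hybridised to 1 array each. A further allele shared by all samples is not reported here. The authors deposited a single table of intensity values, made with GCRMA (per the submitters' processing notes), which corrects background by probe sequence and normalizes quantiles. The sources used here give neither its version nor any later rescaling. Background correction of this kind can shrink differences of dim transcripts. The table held 45101 probe sets, and 64 controls were left out. Of the rest, 34945 had 1 symbol, 932 several and 9160 none, and symbols were updated by Entrez identifier (34741 matched) with a RefSeq table of GRCm38.p6.

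Here log2(intensity + 1) was fitted with genotype as the only term in limma 3.58.1 (R 4.3.3, lmFit, eBayes with trend) over 45037 probe sets, with Benjamini-Hochberg adjustment at 0.05, and tested on simulated data. Precision is limited by the number of arrays, and the median SE was 0.0815. Lists are described by counts and medians, without a set test. The members and lists were chosen with earlier results of these data known. All members were named, with up to 3 genes of each other pathway list by smallest unadjusted p. Ifng was named too, as were Cd274, Cxcl11 and Ido1 at the low end of the chemokine and antigen presentation list. Marker genes were named as examples. Alternatives were another pseudocount, a filter on dim probe sets, no trend, quantile normalization, median centring, array weights, a replicate block, other choices of probe set, and fits without each array in turn.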

Additional observations from a re-analysis of the deposited data

How the results depend on the processing

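Medians of all members, type I genes and GTPases moved by less than the spread between arrays of a genotype under every alternative run. With each array left out the medians ran from 0.19 to 0.35, from 0.19 to 0.34 and from 0.16 to 0.41. Leaving out an array gave 4 to 16 members higher at an unadjusted p below 0.05 (0.824% to 3.83% of all probe sets), 9 to 24 without overlap (7.78% to 13%), and 0 to 1 probe sets with an adjusted p below 0.05. A filter on a mean log2 value of at least 8 left 22 members, of which 6 were higher at an unadjusted p below 0.05 and 4 did not overlap, because dim members such as Mx1, Ifit1 and Stat2 were no longer tested. Values turned in sign for Rsad2 (-0.10) and Iigp1 (-0.06) without wild-type replicate 1, for Ifit2 (-0.04) without wild-type replicate 3, for Xaf1 (0.35) and Iigp1 (-0.06) without Msi1-null replicate 2, and for Socs3 (-0.05) without probe sets whose names mark shared probes. At the other end, Ifit2 reached 0.28, Iigp1 0.36 and Xaf1 -1.21 with an array left out. Same-numbered arrays deviated from their group means with correlations of 0.17, -0.091 and 0.282, so the numbers were not taken as pairs. With the replicate block 15 members, against 11, were higher at an unadjusted p below 0.05, and so were 2.34% of all probe sets, against 1.46%, the medians were 0.26, 0.23 and 0.29, and 0 probe sets passed after adjustment. The deposited table holds no detection calls, so signal over background rests on the receptor probe sets.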

Other observations

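Some interferon-inducible genes outside the named ones had wide ranges, and they were chosen after their values were seen. Ifi27l2a, a small mitochondrial protein gene strongly induced by type I interferon, read 385, 1465 and 431 in wild-type replicates 1 to 3 and 2004, 1079 and 1266 in Msi1-null replicates 1 to 3. Its log2 difference of 1.16 ± 0.50 (SE) was larger than that of any of the 32 measured members, with overlap between the groups, and was 1.78 without wild-type replicate 2. The related gene Ifi27 read 841, 1204 and 725 against 1611, 1196 and 971 in wild-type against Msi1-null replicates 1 to 3 and differed by 0.45 ± 0.24 (SE), or by 0.26 when Msi1-null replicate 1 was left out. Ccl5, a chemokine of T cells and macrophages, read 225, 505 and 463 against 574, 806 and 394 and differed by 0.60 ± 0.36 (SE), or by 0.23 without wild-type replicate 1 and 0.34 without Msi1-null replicate 2. B2m, the light chain of class I molecules, read 6085, 6428 and 5666 against 10116, 6857 and 5989, with Msi1-null replicate 1 far above the other 5 arrays. Its difference of 0.30 ± 0.18 (SE) was 0.08 without that array and 0.46 without Msi1-null replicate 3.

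Among the 7 markers of conventional dendritic cells, Flt3 and Ccr7 had the lowest unadjusted p and were also chosen after their values were seen, while Zbtb46 differed by -0.07 ± 0.08 and Xcr1 by 0.06 ± 0.06 (SE). Flt3, a receptor of dendritic cell progenitors, read 129, 147 and 135 in wild-type replicates 1 to 3 and 164, 177 and 161 in Msi1-null replicates 1 to 3. The groups did not overlap, and 1 of 6 values lay above array background, with a difference of 0.29 ± 0.07 (SE). Ccr7, which guides dendritic cells and T cells to lymph nodes, read 124, 204 and 215 against 300.3, 350.2 and 218 and differed by 0.69 ± 0.25 (SE), or by 0.44 without wild-type replicate 1.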
